A study of Mus musculus with 4 samples.

Results

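Genes of the interferon response and of antigen presentation were compared between mouse fibroblast lines with wild-type and with mutated SMRT. The list holds 53 symbols, namely 26 targets of type I interferon, 7 guanylate-binding protein (GBP) and other targets of type II interferon, 8 transcription factors of the IRF and STAT families, 4 interferon receptor chains and 8 genes of class I peptide loading. A gene was taken as its brightest probe set among those annotated to its symbol alone, and 50 of the 53 symbols had such a probe set, out of 18193 genes named in this way. Isg15, Ifi44 and Gbp4 were not analysed here. The cells were 3T3-MEFs, embryonic fibroblasts made permanent by serial passage, collected undifferentiated when they had become confluent. The wild-type group and the SMRTmRID group had 2 arrays each, and the labels name no agent for either. SMRT is a corepressor through which nuclear receptors and other transcription factors silence genes, and in SMRTmRID its receptor interaction domains are mutated. The labels describe the 2 arrays of a genotype as technical replicates, so the p-values below measure the spread between such arrays and not that between independently derived lines.

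Interferons are secreted when a cell senses foreign nucleic acid or when lymphocytes are activated. Type I interferons bind a receptor made of IFNAR1 and IFNAR2 and act mainly through a complex that holds STAT2 and IRF9 and binds the interferon-stimulated response element. Type II interferon binds IFNGR1 and IFNGR2 and acts mainly at the gamma-activated site. Fibroblasts respond to both types and keep a low level of many of these genes without any stimulus. Among the genes induced are antiviral effectors, the GBP and immunity-related GTPases that attack intracellular parasites, and the machinery that loads peptides on class I molecules.

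The values are MAS5 signals on a linear scale, and a difference is the mean of SMRTmRID less the mean of wild-type after log2(signal + 16), so that changes of dim genes come out too small. A gene was tested when its mean signal over the 4 arrays was above 35.1, the median of all values, and it passed when its p from limma, adjusted after Benjamini and Hochberg, was under 0.05. Among all 11057 genes tested, Pearson's r on the log2 scale was 0.991 between the arrays of either genotype and at most 0.861 between arrays of different genotypes. Of those genes 65.2% were called, 30.3% higher and 35.0% lower in SMRTmRID, so a call by itself sets no gene apart in this comparison. The median difference of all tested genes was -0.05.

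Markers of cell types were compared as well. Where 30.3% of all genes tested rose and 35.0% fell, 6 of the 10 fibroblast markers rose and 3 fell, all 10 being tested. Their summed signal, between 70140 and 71950 in wild-type and between 83769 and 88173 in SMRTmRID, comes mostly from the abundant matrix and filament genes and hides how far single markers were apart. Thy1 had 20.6 and 6.57 in wild-type against 3172 and 3184 in SMRTmRID, and Lum 3.25 and 3.05 against 189.9 and 176. Both had a wild-type mean below the filter, so they entered the test through SMRTmRID alone and had to differ. Among the 8 markers above the filter in both genotypes 4 rose, 3 fell and 1 was not called. Pdgfra differed by 4.20, Pdgfrb by 1.78, Col3a1 by 0.62 and Col1a2 by 0.19, while Vim, Fn1 and S100a4 had differences of -0.16, -0.18 and -0.31 and Col1a1 was not called (0.02). The smallest of these calls were lost without single arrays, Col1a2 without wild-type replicate 2 (adjusted p = 0.0655 by limma), Vim without wild-type replicate 2 (0.215) or SMRTmRID replicate 2 (0.120), and Fn1 without wild-type replicate 1 (0.0783) or SMRTmRID replicate 2 (0.0544).

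Of 12 leukocyte markers measured, 5 were tested and 3 rose, beside 30.3% of all genes tested. The summed signal of the 12 was 633 and 410.4 in wild-type against 704 and 705 in SMRTmRID. Lyz2 and Cd53 had differences of 1.65 and 1.60, both with a wild-type mean below the filter, and Cd14 of 0.41, which no longer passed without wild-type replicate 2 (adjusted p = 0.061 by limma) or SMRTmRID replicate 1 (0.0598). Csf1r and Adgre1 were not called, at 0.08 each. The wild-type arrays of Csf1r disagreed, at 266 and 86.7, against 180 and 149 in SMRTmRID. Its 3 probe sets above the filter were all higher, but its difference lay between -0.65 and 1.99 over the alternatives, so Csf1r is not shown to be unchanged. Of the 7 below the filter, Fcgr3 was lower in the fit without a filter, at 18.7 and 20.4 against 5.999 and 1.69 (adjusted p = 0.0307 by limma). Ptprc (7.01 and 1.01 against 11.9 and 11.2), Cd68, Itgam, Aif1, Laptm5 and Coro1a were not called there. Of 6 epithelial markers Krt19 rose from 6.11 and 4.98 to 53.9 and 82.8, and Epcam fell by 0.37, a call lost without wild-type replicate 1 (0.121) or SMRTmRID replicate 2 (0.0795). Cdh1 went from 55.9 and 42.3 to 2.41 and 1.61, below the filter and called lower without it (adjusted p = 0.00148 by limma), and Krt8, Krt18 and Cldn4 were not called. Krt19, whose wild-type mean was below the filter, entered the test through SMRTmRID alone. The 6 endothelial markers lay below the filter. The part of these markers in the results below was not tested. In bulk RNA, a smaller number of cells of some kind cannot be told apart from less RNA per cell.

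The interferon and antigen presentation genes went both ways, with more calls upward than downward. Of 36 members tested, 18 rose, 6 fell and 12 were not called, which is 66.7% called, close to the 65.2% of all genes. Of the members tested 50% were higher, beside 30.3% of all genes, and 16.7% were lower, beside 35.0%. Their median log2 difference was 0.21. On this scale 9 of the 36 rose at least 2-fold and 2 fell at least 2-fold, beside 9.69% and 6.79% of all genes. Of the 18 that rose, 7 had a wild-type mean below the filter and so entered the test through SMRTmRID alone, and they had to differ. All of these 7 except Ifit1 also count among the 9 that rose at least 2-fold, so no excess is read from that number. Among the 28 members above the filter in both genotypes, 11 rose, 6 fell and 11 were not called, where 29.2% of all such genes rose and 35.6% fell. When all 50 measured members were tested without a filter, 19 rose, 5 fell and 26 were not called, or 38.0% and 10% of them, beside 17.8% and 19.8% of all genes. Wild-type and SMRTmRID signals were fully separated in 31 of the 36 tested members (86.1%), and in 81.5% of all genes.

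**Figure D1:**
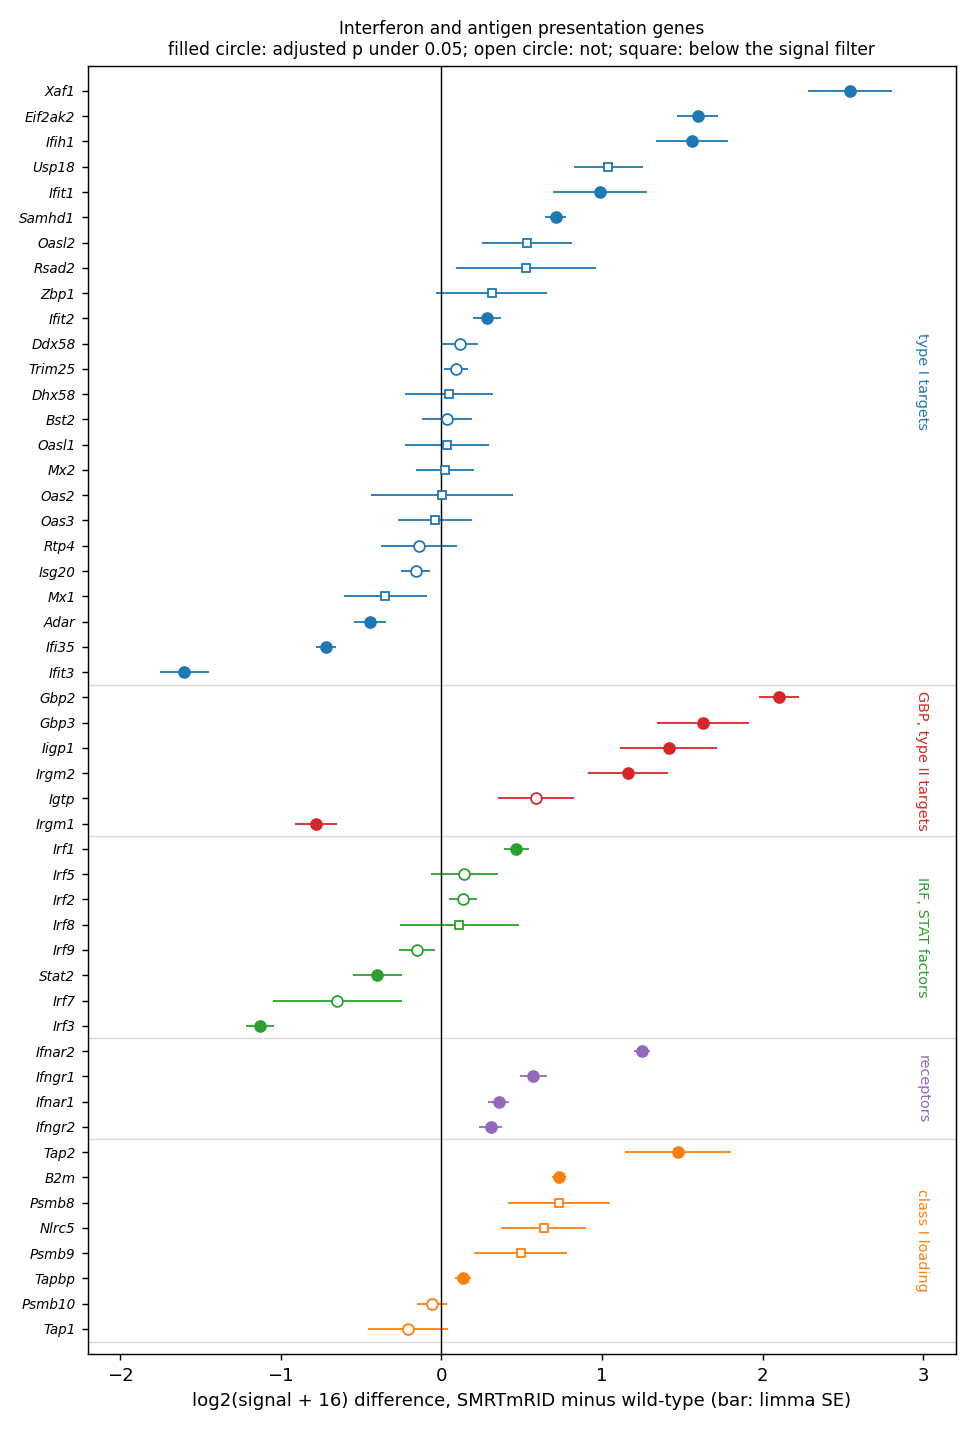
Log2 difference (SMRTmRID minus wild-type, on log2(signal + 16)) of each of the 50 measured members, ordered by size within the 5 groups, with limma's standard error as a bar. Filled circles passed at an adjusted p under 0.05, open circles did not, and squares lay below the filter and show the fit without it; all 4 receptor chains lie to the right of 0, while the type I targets reach from -1.60 to 2.54.

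All 4 receptor chains were called higher in SMRTmRID, beside 30.3% of all genes tested. Ifnar1, Ifnar2 and Ifngr2 lie on chromosome 16 and Ifngr1 on chromosome 10. Whether the genes on chromosome 16 changed independently of each other was not tested. Ifnar2, the chain of the type I receptor that binds interferon most tightly, had signals of 921 and 908 on the wild-type arrays and of 2189 and 2201 on the SMRTmRID arrays. Both SMRTmRID arrays were far above both wild-type arrays, a log2 difference of 1.25 with a standard error of 0.05 (adjusted p = 3.89e-08 by limma). Ifnar1, the other chain of that receptor, changed less, from 485 and 509 to 634 and 646, a difference of 0.36 ± 0.07 (adjusted p = 0.00102 by limma). Ifngr1, the ligand-binding chain of the type II receptor, gave 282 and 279.9 in wild-type against 439 and 412 in SMRTmRID, and rose by 0.57 ± 0.08 (adjusted p = 0.000186 by limma). Its partner Ifngr2 gave 434 and 465 against 553 and 565 and rose by 0.31 ± 0.07 (adjusted p = 0.00378 by limma). In none of the 4 genes did the arrays of the genotypes overlap, which was also so in 81.5% of all genes tested. The group median was 0.46. The other probe sets for these receptors, 2 for Ifnar2, 1 for Ifnar1 and 1 for Ifngr2, were also higher in SMRTmRID, with differences between 0.31 and 1.39.

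The kinases attached to these receptors were not members but belong to the same pathway. Jak2, which serves the type II receptor and many cytokine receptors, had signals of 156 and 148 in wild-type against 1028 and 1055 in SMRTmRID, a log2 difference of 2.66 ± 0.08 (adjusted p = 5.25e-09 by limma). A further probe set for Jak2 gave 173 and 199 against 979 and 1015. Jak1, shared by both interferon receptors, went from 1441 and 1398 to 2322 and 2327, a difference of 0.71. Tyk2, the partner of Jak1 at the type I receptor, gave 169 and 157 in wild-type against 180.4 and 131 in SMRTmRID, so that its arrays overlapped, and it was not called (adjusted p = 0.696 by limma). Of the 5 kinases and STATs tested 3 rose, the third being Stat3 at 0.27 on its brightest probe set, and Stat6 fell by 0.71. Of all genes tested 30.3% rose and 35.0% fell, and 65.2% were called. Of the 4 probe sets of Stat3 above the filter 1 was lower.

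The transcription factors of the response went both ways. Of 7 factors tested 1 rose, 2 fell and 4 were not called, where 30.3% of all genes tested rose and 35.0% fell. The median of the group was -0.15. Irf3, the factor that nucleic acid sensors switch on to start interferon production, had signals of 569 and 529.7 in wild-type against 255 and 229.6 in SMRTmRID. It fell by 1.13 ± 0.09 on the log2 scale (adjusted p = 2.82e-06 by limma), and its 3 other probe sets were also lower, by 1.09, 0.30 and 0.30. Irf1, an early target of type II interferon that drives class I genes, went the other way, from 450.1 and 412 to 625 and 578, a difference of 0.47 ± 0.08 (adjusted p = 0.000479 by limma). Both differences were larger than the spread of the arrays, which did not overlap in either gene, as in 81.5% of all genes tested.

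Stat2 and Irf9, whose products belong to the type I complex, had lower signals on the SMRTmRID arrays. Stat2 had signals of 166 and 149.6 against 131 and 102, a difference of -0.40 ± 0.15 with an adjusted p of 0.0447 (limma). That call was lost in 7 of its 13 alternatives, among them those without wild-type replicate 1 (0.175), without wild-type replicate 2 (0.0626) and without SMRTmRID replicate 2 (0.242), and its adjusted p ranged from 0.0165 to 0.242 over them. Irf9, the DNA-binding subunit, gave 181 and 183 against 163 and 161 and was not called (adjusted p = 0.271 by limma). Irf2, which competes with Irf1 at the same sites, gave 271 and 276 against 298 and 306 (difference 0.14), and Irf5 gave 73.9 and 54.0 against 75.6 and 67.8 (difference 0.14). Neither was called, and the arrays of Irf5 overlapped on this probe set. A second probe set of Irf5 above the filter gave 36.6 and 46.2 against 64.8 and 82.3, a difference of 0.64. Irf5 passed in 2 of its 13 alternatives (lowest adjusted p = 0.0301 by limma). Irf7, the amplifier of type I interferon production, had 53.3 and 50.9 in wild-type but 11.2 and 53.1 in SMRTmRID. The SMRTmRID arrays of this gene disagreed, and its difference of -0.65 became 0.02 without SMRTmRID replicate 1 and -1.32 without SMRTmRID replicate 2. Only the last of these passed (adjusted p = 0.00887 by limma), the adjusted p over its alternatives lying between 0.00887 and 0.950. Without SMRTmRID replicate 1 the median of the factor group was 0.02. Irf8, a factor of myeloid and lymphoid cells, had signals between 7.56 and 31.2 and lay below the filter.

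**Figure D2:**
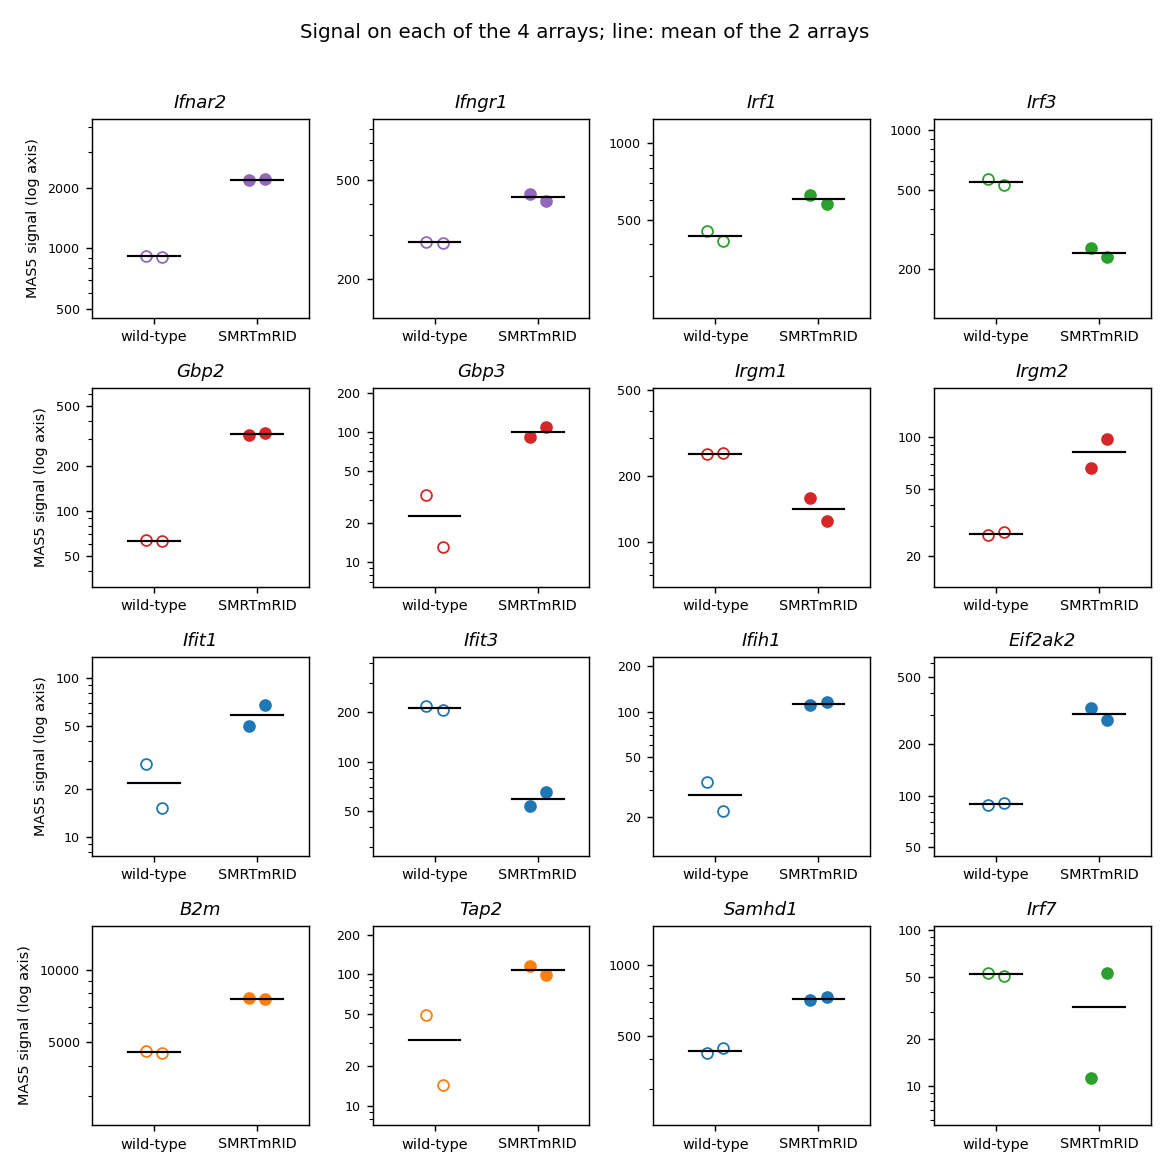
MAS5 signal (log axis, different in each panel) of 16 members on the 2 wild-type arrays (open points) and the 2 SMRTmRID arrays (filled points), with the mean of each pair as a line. The pairs are apart in 15 panels, downward for Irf3, Irgm1 and Ifit3 and upward for the other 12, while 1 SMRTmRID array of Irf7 lies at the wild-type level and the other at 11.2.

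Targets of type II interferon showed the highest group median, 1.29, with 4 of 6 members higher, 1 lower and 1 not called. Gbp3, Irgm2 and Iigp1, 3 of those 4, entered the test through SMRTmRID alone and had to differ, so the rank of the median is not read as a result. Above the filter in both genotypes 1 member rose, 1 fell and 1 was not called, where 29.2% of all such genes rose and 35.6% fell. Gbp2, a guanylate-binding GTPase that is recruited to the vacuoles of intracellular pathogens, had 64.4 and 62.6 in wild-type against 319 and 331 in SMRTmRID. Its log2 difference was 2.10 ± 0.12 (adjusted p = 5.49e-07 by limma), and a second probe set gave 46.2 and 51.2 against 230.1 and 221. Gbp3, of the same family and on the same chromosome, gave 32.5 and 12.9 against 91.5 and 109, a difference of 1.63 ± 0.28. The arrays of both genes were clearly separated, though Gbp3 was near the bottom of the scale in wild-type.

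The immunity-related GTPases, which act on the same vacuoles, did not move as a block. Irgm2 had 26.6 and 27.9 in wild-type against 65.9 and 97.7 in SMRTmRID and rose by 1.16 ± 0.25 (adjusted p = 0.00253 by limma). Iigp1, an effector that coats parasite vacuoles, gave 24.4 and 9.52 against 75.9 and 63.7 and rose by 1.41 ± 0.30 (adjusted p = 0.00244 by limma). Igtp, another GTPase of this family, gave 40.6 and 71.0 against 96.6 and 82.8. These did not overlap, but the spread of the wild-type arrays was wide and the difference of 0.59 just missed the threshold (adjusted p = 0.0541 by limma). It passed in 4 of 13 alternatives, among them the one without wild-type replicate 2 (0.0109), with adjusted p-values from 0.0109 to 0.317 over all of them. Irgm1, a regulatory GTPase of the family, went down instead, from 252 and 255 to 159 and 124, a difference of -0.78 ± 0.13 (adjusted p = 0.000579 by limma). Its SMRTmRID arrays both lay below its wild-type arrays. With the exception of Gbp2 and Irgm1 the members that changed in this group had wild-type means below the filter. With a pseudocount of 64 the group median was 0.70 and with a pseudocount of 1 it was 1.82.

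Type I targets were split. Of 24 measured, 14 were tested, of which 6 rose, 3 fell and 5 were not called, and the median was 0.10. Ifit1, Xaf1 and Ifih1, 3 of the 6, had a wild-type mean below the filter and entered the test through SMRTmRID alone. Above the filter in both genotypes were 11 targets, of which 3 rose, 3 fell and 5 were not called. All such genes rose in 29.2% and fell in 35.6%. Xaf1 is counted among the 6, and among all members that rose and that rose at least 2-fold, by its brightest probe set, although a second probe set opposed it. The IFIT genes, whose products bind viral RNA and block its translation, all lie on chromosome 19 and did not change together. Ifit3 had 218 and 207 in wild-type against 53.4 and 65.4 in SMRTmRID, a log2 difference of -1.60 ± 0.15 (adjusted p = 1.26e-05 by limma). Ifit1 moved the other way from a low level, 28.7 and 15.2 against 49.6 and 67.9, a difference of 0.99 ± 0.29 with an adjusted p of 0.0143 (limma). Ifit2 was the most even of them, with 251 and 247 against 300.4 and 312, a difference of 0.28 ± 0.09 and an adjusted p of 0.0192 (limma). The calls of Ifit1 and Ifit2 were each lost without wild-type replicate 2 (adjusted p = 0.0706 and 0.0587) and without SMRTmRID replicate 2 (0.114 and 0.0867). Their adjusted p ranged from 0.00715 to 0.114 and from 0.0124 to 0.0867 over the alternatives. Each of these genes had 1 probe set here, and whether it also reads a near-identical copy of the gene was not tested.

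Sensors of viral RNA stood at different levels of change. Ifih1, which encodes the double-stranded RNA sensor MDA5, had 34.1 and 21.9 in wild-type against 109.8 and 115 in SMRTmRID, a difference of 1.56 ± 0.22 (adjusted p = 0.000198 by limma). Both wild-type signals were below the filter, so it was tested through SMRTmRID alone. Eif2ak2, the gene of PKR, a kinase that stops translation when it binds double-stranded RNA, gave 88.5 and 90.9 against 328 and 280.2. It rose by 1.59 ± 0.13 (adjusted p = 3.60e-06 by limma), and its 2 other probe sets were also higher, with differences of 1.56 and 1.21. Ddx58, the gene of the sensor RIG-I, gave 192 and 219 against 229 and 218, which overlap (difference 0.12, adjusted p = 0.389 by limma). Its second probe set, at 56.0 and 44.0 against 96.4 and 101, differed by 0.80, and the gene passed with that probe set (adjusted p = 0.00497) and with the mean of its probe sets (0.0162), the highest adjusted p over the alternatives being 0.876. Trim25, a ubiquitin ligase that acts with RIG-I, gave 402 and 421 against 429 and 451 and was not called (difference 0.09). Dhx58 and Zbp1, further sensors of this kind, had signals of at most 30.4 and lay below the filter.

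Among the other effectors, Samhd1, which depletes the nucleotides that viruses need to copy their DNA, had 424 and 447 in wild-type against 714 and 730.4 in SMRTmRID. It rose by 0.71 ± 0.07 (adjusted p = 1.05e-05 by limma), and all of its 5 probe sets were higher. Ifi35 fell by 0.72 ± 0.06, from 911 and 904 to 562 and 531 (adjusted p = 5.95e-06 by limma), and its 3 probe sets were all lower. Adar, the enzyme that edits double-stranded RNA and so keeps it from being sensed as foreign, gave 365 and 387 against 294 and 251 and fell by 0.45 ± 0.10 (adjusted p = 0.00285 by limma). Isg20, Bst2 and Rtp4 had differences of -0.16, 0.04 and -0.14 and were not called. The sign of Bst2 was not stable, at -0.01 after quantile normalization, -0.09 without wild-type replicate 1 and -0.14 without SMRTmRID replicate 1.

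Xaf1, a pro-apoptotic interferon target, cannot be given a direction from these data. Its brightest probe set had 20.2 and 7.03 in wild-type against 150.1 and 154 in SMRTmRID, a difference of 2.54 ± 0.26 (adjusted p = 2.05e-05 by limma). Its second probe set ran against this, with 62.9 and 35.2 in wild-type against 19.2 and 23.5 in SMRTmRID. That difference of -0.77 also passed (adjusted p = 0.0480 by limma). Xaf1 was the only one of the tested members whose probe sets above the filter differed in direction.

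The 10 type I targets below the filter, whose low level is what set them apart, were Mx1, Mx2, Oas2, Oas3, Oasl1, Oasl2, Rsad2, Usp18, Dhx58 and Zbp1, with signals between 0.892 and 42.8. Mx1, an antiviral GTPase, had 10.5 and 17.8 in wild-type against 9.98 and 5.27 in SMRTmRID. Oasl1, of the oligoadenylate synthetase family, had 30.8 and 32.5 against 33.5 and 31.9, and Rsad2, the gene of viperin, had 31.4 and 5.11 against 21.9 and 38.7. The arrays of the genotypes overlapped in both Oasl1 and Rsad2. Usp18, which removes ISG15 from proteins and dampens the type I receptor, had 1.28 and 0.892 against 19.5 and 18.6 and was called in the fit without a filter (difference 1.04, adjusted p = 0.00798 by limma). The mean of each of these genes over the 4 arrays was below the median of all values, and detection calls were not analysed here.

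The promoter sequences were searched for the response elements. In the RefSeq promoter table of GRCm38.p6, which gives 250 bases before and 50 after a start, 42 of the 53 symbols had an entry. The core of the interferon-stimulated response element, searched as GAAA, any 2 bases and again GAAA, on both strands, stood in at least 1 promoter of 17 of these 42 genes (40.5%), against 3.99% of all 27025 genes in the table and 3.44% of its 32851 promoters. The gamma-activated site, searched as TTCNNNGAA, which reads the same on both strands, was found in 15 of the 42 (35.7%), against 9.55% of all genes and 8.30% of promoters. Of the 14 tested members with this GAAA pair, 7 rose, 3 fell and 4 were not called. Among the 7, Ifit1, Ifih1, Gbp3 and Irgm2 entered the test through SMRTmRID alone and had to differ. Of the 19 tested members with a promoter entry and without this pair, 9 rose, 3 fell and 7 were not called, a count not split by the filter. Of all genes tested 30.3% rose and 35.0% fell, and whether the pair goes with a call was not tested. The 170 bases before the start are printed for 7 members with the element, because they include genes of 1 family that moved in opposite directions, Ifit1 and Ifit3 as well as Irgm2 and Irgm1. Capitals mark the matches to the GAAA pair on either strand and, in Irgm2, also a match to TTCNNNGAA. The windows are chr19:34640719-34640888 (plus strand) for Ifit1, chr19:34583359-34583528 (plus strand) for Ifit3, chr11:58214807-58214976 (plus strand) for Irgm2, chr11:48871421-48871590 (minus strand) for Irgm1, chr3:142620493-142620662 (plus strand) for Gbp2, chr3:142559874-142560043 (plus strand) for Gbp3 and chr2:122147517-122147686 (plus strand) for B2m, all read 5′ to 3′.
Ifit1: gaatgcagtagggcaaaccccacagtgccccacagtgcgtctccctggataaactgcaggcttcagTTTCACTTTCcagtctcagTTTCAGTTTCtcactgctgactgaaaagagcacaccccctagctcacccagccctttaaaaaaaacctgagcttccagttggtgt
Ifit3: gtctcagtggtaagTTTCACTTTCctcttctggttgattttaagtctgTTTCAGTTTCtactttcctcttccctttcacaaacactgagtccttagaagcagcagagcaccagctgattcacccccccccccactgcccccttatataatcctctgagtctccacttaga
Irgm2: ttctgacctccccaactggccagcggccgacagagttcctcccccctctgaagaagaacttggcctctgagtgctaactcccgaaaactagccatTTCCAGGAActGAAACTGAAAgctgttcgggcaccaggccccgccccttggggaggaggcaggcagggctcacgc
Irgm1: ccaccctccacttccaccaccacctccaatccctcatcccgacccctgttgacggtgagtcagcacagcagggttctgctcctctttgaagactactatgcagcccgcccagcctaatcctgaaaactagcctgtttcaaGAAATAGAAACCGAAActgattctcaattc
Gbp2: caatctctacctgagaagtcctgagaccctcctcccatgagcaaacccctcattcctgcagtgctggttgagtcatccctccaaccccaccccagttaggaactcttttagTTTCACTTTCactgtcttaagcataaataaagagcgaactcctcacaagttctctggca
Gbp3: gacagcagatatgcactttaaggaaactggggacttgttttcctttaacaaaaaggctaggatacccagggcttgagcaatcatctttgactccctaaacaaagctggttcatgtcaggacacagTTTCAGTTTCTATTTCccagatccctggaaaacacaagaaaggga
B2m: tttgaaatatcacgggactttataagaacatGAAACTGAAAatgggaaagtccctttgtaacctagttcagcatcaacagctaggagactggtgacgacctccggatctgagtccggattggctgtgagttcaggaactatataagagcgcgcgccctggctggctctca

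Ifit1, which rose, and Ifit3, which fell, each held 2 separate matches, whose first bases lay 104 and 85 bases before the start in Ifit1 and 156 and 122 in Ifit3. Irgm1, which fell, held 2 overlapping matches 30 and 24 bases before the start, and Irgm2, which rose, 1 match at 64 bases next to the TTCNNNGAA match at 75. Since these genes were picked for their opposite directions, whether the element goes with a direction was not tested by them. A match of letters is not evidence of binding, and in Ifih1, Eif2ak2 and Ddx58 the match to the GAAA pair lay after the start.

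In class I peptide loading 3 of 5 tested genes rose, none fell and 2 were not called, with a median of 0.14. Of all genes tested 30.3% rose and 35.0% fell. The 4 genes above the filter in both genotypes held 2 that rose and 2 not called, where 29.2% of all such genes rose and 35.6% fell. B2m, the invariant light chain without which class I molecules do not reach the surface, had 4609 and 4537 in wild-type against 7624 and 7586 in SMRTmRID. Its log2 difference was 0.73 ± 0.04 (adjusted p = 5.05e-07 by limma), and its other probe set gave 0.74. Tap2 and Tap1 encode the subunits of the transporter that carries peptides into the endoplasmic reticulum. Tap2 had 48.9 and 14.4 against 116 and 98.9, a difference of 1.47 ± 0.33 (adjusted p = 0.00326 by limma) that was 0.93 without wild-type replicate 2. Its wild-type mean was below the filter, so it entered the test through SMRTmRID alone. Tap1 had 46.1 and 41.4 against 38.0 and 33.5, and it was not called (difference -0.21, adjusted p = 0.488 by limma). Tapbp, the gene of tapasin, which holds the transporter to the class I molecule, had 1307 and 1334 against 1447 and 1457. Its difference of 0.14 ± 0.05 (adjusted p = 0.0356 by limma) no longer passed when any of the 4 arrays was left out, with adjusted p-values from 0.0659 to 0.128. A second, dimmer probe set of Tapbp gave 0.78.

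The immunoproteasome subunits, which interferon puts in place of the constitutive ones to cut peptides for class I, were not called in either direction. Psmb10 had 298 and 282 in wild-type against 289.6 and 267 in SMRTmRID (adjusted p = 0.610 by limma). Psmb8 and Psmb9 lay below the filter, with signals of at most 4.85 in wild-type and between 4.49 and 28.5 in SMRTmRID. The constitutive counterparts were lower in SMRTmRID. Psmb5 gave 2549 and 2580.3 against 1603 and 1602, a difference of -0.67, Psmb6 a difference of -0.59 and Psmb7 a difference of -0.49, each with an adjusted p of at most 6.73e-05 (limma). Psme3, a proteasome activator subunit, fell by 0.87, while Psme1, the interferon-inducible activator subunit, and the assembly factor Pomp had differences of 0.08 and 0.10 and were not called. Nlrc5, the transactivator of class I genes, lay below the filter at 15.96 and 16.3 against 32.6 and 35.3, without passing in the fit that kept such genes (adjusted p = 0.107 by limma).

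**Figure D3:**
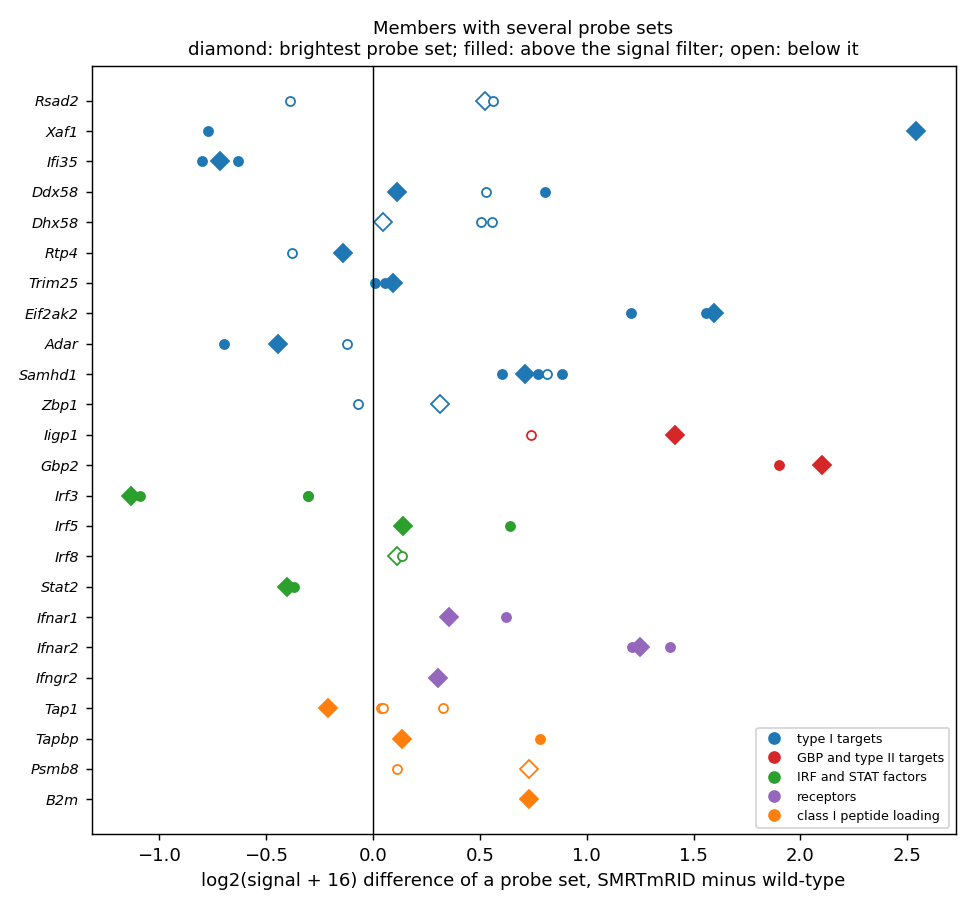
Log2 difference (SMRTmRID minus wild-type) of every probe set of the 24 members with several, coloured by group, with the brightest as a diamond and probe sets below the filter open. Filled points of a gene lie on the same side of 0 except for Xaf1, at 2.54 and -0.77; the 4 probe sets of Irf3 are all negative and the 3 of Eif2ak2 and of Ifnar2 all positive.

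The probe sets of the class I heavy chain genes did not all move with B2m. The brightest probe set of H2-K1 was lower in SMRTmRID, at 741 and 760.1 against 389.9 and 578, and the next one higher, at 482 and 518 against 629 and 633. No direction is given for H2-K1, since its probe sets disagreed. The difference of -0.64 on the brightest one was -0.37 without SMRTmRID replicate 1. H2-D1 had 1036 and 1029.6 against 853 and 797 and fell by 0.32, and its difference was negative on each of its 4 probe sets above the filter. On the third brightest that difference was only -0.013, at 257 and 171 against 203 and 213, which overlap. With the mean of its probe sets, those below the filter included, H2-D1 did not pass (adjusted p = 0.530 by limma). Whether the probe sets of H2-K1 and H2-D1 also read other class I genes was not tested. H2-M3, which presents formylated peptides, rose by 0.84 from 152 and 107 to 250.02 and 235. Where 30.3% of all genes tested rose and 35.0% fell, 2 of 7 heavy chain and folding genes rose and 3 fell, the brightest probe set of H2-K1 included. The chaperone gene Canx, at 0.11, was the other that rose, and it did not pass without any 1 of the arrays (adjusted p from 0.071 to 0.191 by limma).

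Other genes of the pathways were taken from 8 lists with 85 symbols, of which 71 were measured and 53 tested. Of these 20 rose, 11 fell and 22 were not called, so 37.7% were higher and 20.8% lower, beside 30.3% and 35.0% of all genes. Of the 20 that rose, 4 had a wild-type mean below the filter. Among the 48 above it in both genotypes 16 rose, 11 fell and 21 were not called. The interferon genes themselves were at the bottom of the scale. Ifnb1 had 23.9 and 23.01 in wild-type against 33.5 and 28.7 in SMRTmRID, and Ifna1, Ifna2, Ifna4, Ifna5 and Ifng had signals between 0.983 and 33.7. None of the 6 ligand genes was tested, and in the fit without a filter 0 of 6 were called (limma), with 0 at an unadjusted p under 0.05. Of 7 adaptor and kinase genes of nucleic acid sensing 0 were called and 0 had an unadjusted p under 0.05 (limma), Mavs, Tbk1, Ikbke, Ticam1, Myd88, Tlr3 and Tlr4 having differences between -0.11 and 0.59. Among negative regulators 4 of 9 rose and 1 fell. Socs2 and Socs3, feedback inhibitors of JAK kinases, rose by 1.25 and 0.93, the phosphatase gene Ptpn2 by 0.75 and Ptpn11, which had 1 of 3 probe sets lower, by 0.25, while Ptpn1 fell by 0.50.

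**Figure D4:**
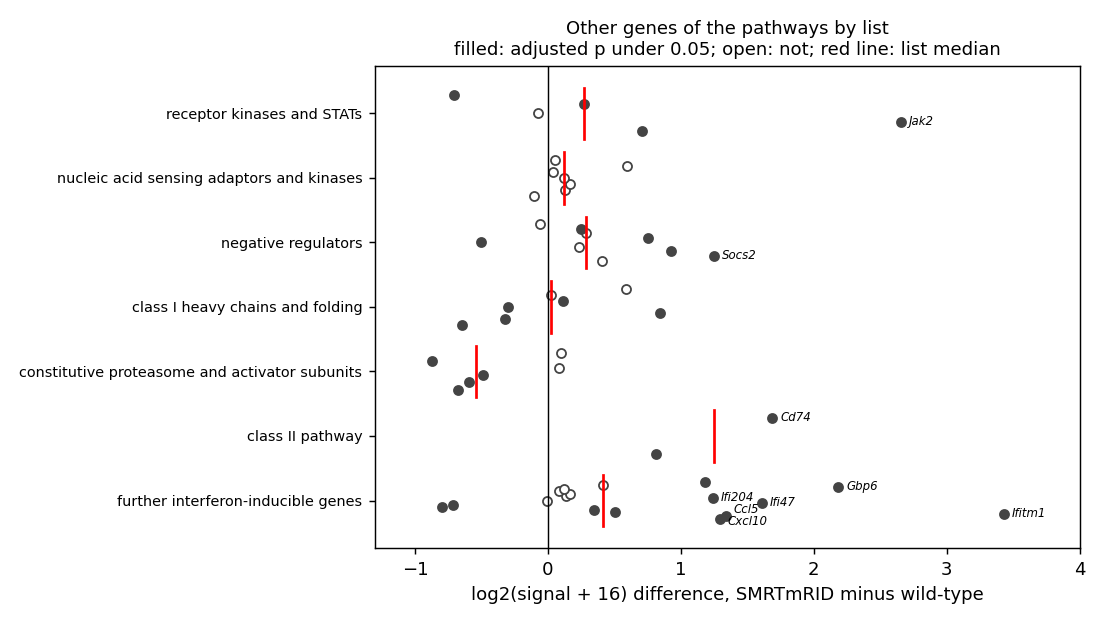
Log2 difference (SMRTmRID minus wild-type) of the 53 tested genes of 7 further lists of the interferon and antigen presentation pathways, filled where the adjusted p was under 0.05, with each list's median as a red line. The tested constitutive proteasome and activator genes lie at or below 0.10, no sensing adaptor passes, and Ifitm1 and Jak2 lie farthest to the right at 3.43 and 2.66.

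Further interferon-inducible genes numbered 17 in the test. Of these 9 rose and 2 fell, and their median was 0.41. Gbp6, Ifi47 and Ifi204, which are among the 9, entered the test through SMRTmRID alone. Of the 14 above the filter in both genotypes 6 rose, 2 fell and 6 were not called, where 29.2% of all such genes rose and 35.6% fell. Ifitm1, a membrane protein that hinders the entry of viruses, had 70.2 and 87.6 in wild-type against 1063 and 942 in SMRTmRID, a difference of 3.43 ± 0.11 (adjusted p = 1.50e-08 by limma). Its neighbours Ifitm2 and Ifitm3, abundant in both genotypes, rose by 0.50 and 0.35. Gbp6, of the same family as Gbp2, went from 2.46 and 3.36 to 71.8 and 68.2 (difference 2.19), and Ifi47, another immunity-related GTPase, from 4.48 and 29.3 to 66.9 and 87.7 (difference 1.61, or 1.03 without wild-type replicate 1). The chemokine genes Ccl5 and Cxcl10 rose by 1.34 and 1.29. The genes of this list that fell were Ifi27 at -0.80 and Ifi30, a thiol reductase of antigen processing, at -0.72. In the class II pathway Cd74, the invariant chain, had 51.4 and 39.1 against 175 and 185 (difference 1.69) and H2-DMa had 28.7 and 37.9 against 60.1 and 81.5 and rose by 0.81. The wild-type mean of H2-DMa was below the filter, so it entered the test through SMRTmRID alone. The call of H2-DMa was lost without wild-type replicate 1 (adjusted p = 0.0633 by limma) and without SMRTmRID replicate 2 (0.130). The class II transactivator Ciita had signals between 13.8 and 24.0 and H2-Ab1 between 2.75 and 28.5, and both lay below the filter.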

How the data were processed

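Total RNA of wild-type and of SMRTmRID 3T3-MEFs was measured on single-colour Affymetrix arrays, 2 for each genotype, which the labels call technical replicates and which may be repeat runs of 1 sample. The deposited values are intensities on a linear scale, 1 per probe set and array, made with MAS5 per the submitters' processing notes. After trimming 2% of the values at either end, the mean came to 200.0 for all 4 arrays, which had thus been scaled. Of 45101 probe sets, 64 controls were left out, and 34945 had 1 symbol, 932 several and 9160 none in the platform annotation. Several genes of the pathways are not reported here.

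Signals were transformed to log2(signal + 16) and compared over 11057 genes with limma 3.58.1 in R 4.3.3 (lmFit, eBayes with a variance trend, no covariates), after the code had been tested on simulated data. P-values are two-sided, and standard errors are limma's. Precision is limited by having 4 arrays, and the spread between independent samples of a genotype was not measured here. The replicate numbers do not pair the arrays. Figures used matplotlib 3.10.9.

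The members and lists were chosen with earlier results of these data known. Values on all 4 arrays are given for called members with a log2 difference of at least 1 either way, for the 2 called members of each group with the greatest difference and where probe sets disagreed, and for other members where they describe a family. Of each further list up to 4 called genes with the greatest difference are named, and the choice of any others was made with their values in view. The alternatives used a pseudocount of 1 or 64, a stricter filter or none, arrays brought together by quantiles or medians, a fit without the variance trend, the average or the second brightest of the probe sets, a block for the replicate number, and the 3 arrays that remained after each was dropped.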

Additional observations from a re-analysis of the deposited data

How the results depend on the processing

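Of the 24 called members, 19 kept their direction and call in every alternative run, the exceptions being Ifit1, Ifit2, Xaf1, Stat2 and Tapbp. Members higher in SMRTmRID numbered between 9 and 20 and members lower between 3 and 6 over all alternatives, and leaving out an array gave 15 to 17 and 5 to 6. Genes above the 75th percentile of signal (202.9) left 9 members higher and 3 lower, 11 further pathway genes higher, 2 type I targets higher, 1 factor lower and a factor median of 0.14, and no gene of the GBP group, since fewer genes are tested. Averaging the probe sets of a gene gave medians of 0.28 for type I targets, 0.53 for receptors and 0.60 for class I loading, with 2 factors higher and 1 lower, and the second brightest probe set gave 0.60 for receptors and 0.76 for class I loading, also with 2 factors higher and 1 lower. Without a filter 1 factor was lower, the factor median was -0.020 and the class I median 0.56, and without a variance trend 1 factor was lower. Quantile normalization gave a class I median of 0.21. A pseudocount of 1 gave a GBP median of 1.82, and one of 64 gave 0.70 there and 0.42 for receptors. Leaving out an array gave 1 to 2 factors lower, with 1 when either wild-type array was left out, and a factor median of -0.16 to 0.023. The difference reversed for Xaf1 with the second brightest probe set (-0.77), for Bst2 after quantile normalization (-0.0069), without wild-type replicate 1 (-0.093) and without SMRTmRID replicate 1 (-0.14), for Irf5 without wild-type replicate 2 (-0.037, and up to 0.32 without another array) and for Irf7 without SMRTmRID replicate 1 (0.023, and down to -1.32 without SMRTmRID replicate 2). Beyond the effect of testing fewer genes or samples the cause was not tested.

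The replicate number as a block gave 7420 genes called against 7213, with 19 members higher and 6 lower. The departures of arrays with the same number from the mean of their genotype had a correlation of 0.012, so the numbers were not taken as a pairing. Low signals limit 14 members, which lay below the filter.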
